A study of Mus musculus with 8 samples.

Results

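Hearts of mice lacking MAFbx were compared with wild-type hearts over sham operation and myocardial infarction together, to find the genes that MAFbx loss changed alike in both conditions. All 8 arrays of the series entered this comparison. The 4 arrays of genotype MAFbxKO (KO) were set against the 4 of genotype WT, with the operation as an additive term, and a gene's effect was called like in both conditions where its KO minus WT differences had 1 sign and the smaller was at least 0.5 of the larger. RNA came from mouse heart and was read on an Affymetrix Mouse Gene ST array. Each genotype had 2 sham arrays and 2 MI arrays, which makes 4 groups of 2. MI stands for a myocardial infarction made by permanently tying the left coronary artery, and RNA of those hearts was taken on day 1 from the ligation. No label gives the interval from sham surgery to collection, the strain, sex or age of the mice, or which part of Fbxo32 was deleted. Nor is it stated whether both arrays of a group are separate animals. The p-values thus reflect only the spread among these samples, which may be technical.

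MAFbx, also called atrogin-1, is the muscle F-box protein encoded by Fbxo32. An F-box protein is the part of an SCF ubiquitin ligase that holds the substrate, and ligases of this kind mark proteins with ubiquitin for breakdown by the proteasome. In striated muscle MAFbx is best known for its induction during wasting, under the control of FoxO transcription factors, and in the heart it has been linked to calcineurin signalling and to the handling of sarcomere and Z-disc proteins. Because it acts on proteins, a change in a transcript on these arrays is not a direct readout of a MAFbx substrate.

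The deposited values were log2 levels, and 19938 genes were tested with 1 probe each. Between the 2 arrays of a group, Pearson's r over genes, which are not independent replicates, was between 0.991 (KO sham) and 0.996. Cardiomyocyte markers were high in every array, with Myh6 between 12.97 and 13.48, Tnnt2 between 13.67 and 13.77 and Ryr2 between 11.75 and 12.50, against a median gene level of 5.80. The mean of 15 atrial markers was 7.81 and 8.36 in WT sham and 7.72 and 7.36 in KO sham, against 7.36 to 7.41 in all MI arrays. The part of atrial tissue in the sham differences below was not tested, while in MI this mean was not lower in KO.

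In all, 11 of 19938 genes, or 0.0552%, differed between KO and WT (limma adjusted p under 0.05). They were 5 genes higher in KO (Myh7, Olfml2b, Mtss1, Cp and Lama5), 0.0251% of the genes tested, and 6 lower in KO (Fbxo32, Myl1, Klk1b11, Pdlim3, Pdlim7 and Pcp4l1), or 0.0301%. All 11 had 1 sign in both conditions, with the smaller difference at least 0.5 of the larger, and in all 11 the KO arrays lay on 1 side of the WT arrays within sham and within MI. The fit chose the genes on these same arrays and counts unlike effects as error, so like sign, size and side are largely set by that choice and describe the genes rather than support them. The placement on 1 side alone is common at this size, since 7.55% of all genes had their KO arrays on the same side of WT in both conditions and 6.97% had them on opposite sides. The 2 strongest results were Fbxo32 and Myh7, and the other 9 genes shared an adjusted p of 0.0436, just inside the threshold. In bulk RNA, fewer cells of a type and less RNA per cell cannot be told apart, which holds for every gene below. With 0.0552% of all genes called, a short gene list would mostly hold 0 called genes. A count of 0 in a list below thus says little about that list.

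**Figure D1:**
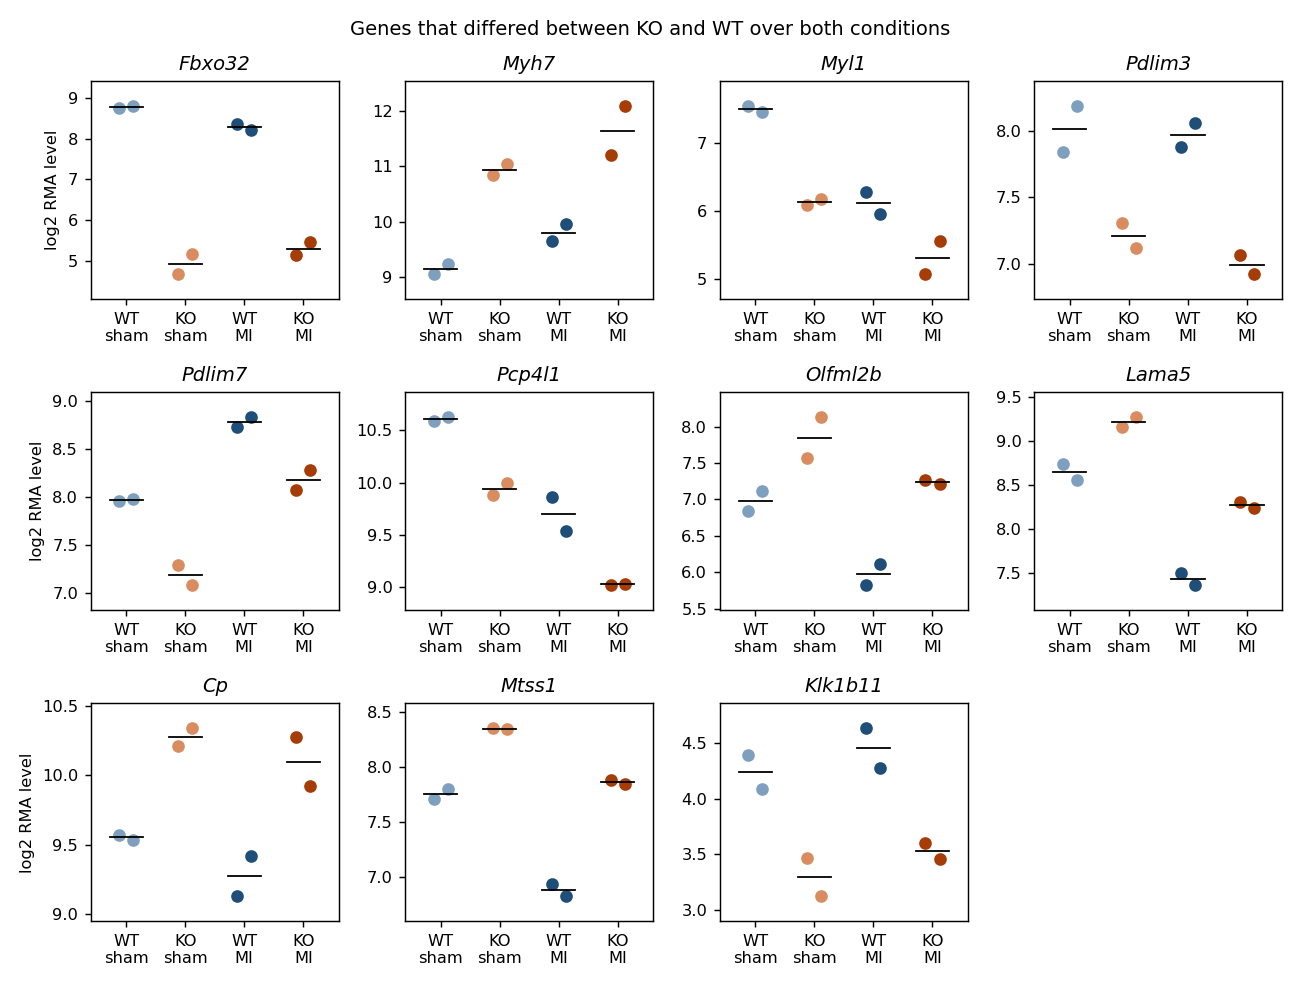
Log2 RMA level (y axis, a separate scale for each gene that does not start at 0) of the 11 genes in each of the 8 arrays; points are arrays, black lines the means of the 2 arrays of a group. In every panel the KO points lie on the same side of the WT points in sham and in MI.

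Fbxo32, the targeted gene, was low in every KO array. In sham hearts it read 8.76 and 8.79 in WT and 4.68 and 5.17 in KO, and after MI 8.35 and 8.21 in WT and 5.14 and 5.46 in KO. The groups stood far apart in both conditions, and the KO levels fell within the range of low and middling genes, between percentiles 34.3 and 45.5 of their array, against 83.3 to 87.7 in WT. Over both conditions Fbxo32 was 10.7-fold lower in KO (log2 difference -3.42, SE 0.18, 95% interval -3.81 to -3.02, limma adjusted p = 3.52e-05). The fall was -3.85 in sham hearts against -2.98 in MI hearts, so it was smaller after MI by 0.87 on the log2 scale (95% interval 0.30 to 1.43, unadjusted p = 0.00662, limma adjusted p = 0.487). What the probe reads in KO hearts has no reference here, since the deleted part is not known.

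The largest called change beyond the targeted gene was in Myh7, the slow beta myosin heavy chain, which the fetal ventricle uses and which adult mouse ventricle re-expresses under load. It read 9.06 and 9.24 in WT sham, 10.84 and 11.04 in KO sham, 9.64 and 9.96 in WT MI and 11.20 and 12.08 in KO MI. KO arrays were the higher ones in both conditions, and the KO sham arrays also lay above the WT MI arrays. Myh7 was 3.52-fold higher in KO (log2 difference 1.82, SE 0.17, 95% interval 1.44 to 2.19, limma adjusted p = 0.00529). The difference was 1.79 in sham and 1.84 in MI, and the 2 differed by 0.05 on the log2 scale (95% interval -0.74 to 0.84). That interval is wide, so a difference in size between the conditions of up to 0.84 was within the error. In the same fit, MI arrays stood 0.68 (SE 0.17) above sham arrays for Myh7, a difference in the same direction as that of the KO.

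The rest of the myosin heavy chain family did not pass the test. Among 13 other heavy chain genes the KO minus WT difference ran from -0.48 for Myh11, the smooth muscle form, to 0.24 for Myh15, with a median of -0.13 and a lowest adjusted p of 0.457. Myh6, the fast alpha chain that is the main form of the adult mouse ventricle, differed by -0.14, and its level stayed between 12.97 and 13.48 in all 8 arrays. Of 17 fetal and wall stress genes, a list that holds Myh7, 1 was higher and 0 were lower in KO, with a median difference of -0.15 against 0.0008 over all genes. Other members of that list had values on the opposite side to Myh7 without passing. Acta1, the skeletal alpha-actin of the fetal and stressed heart, was the nearest to the threshold (log2 difference -2.08, adjusted p = 0.108). Nppa, the atrial natriuretic peptide precursor, differed by -2.31 in sham and 0.14 in MI.

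Promoter windows were read for the genes of the contractile and Z-disc group to show their sequence beside these values. RefSeq promoters on GRCm38.p6, from 250 bases before to 50 after a transcript start, were matched for 9 of the 11 genes, in 11 windows. They were searched on both strands for FoxO (GTAAACA), NFAT (GGAAAA), MEF2 (CTATTTATA) and the NF-kB forms GGGATTTCC or GGAATTTCC or GGGACTTCC, and, added after the data were seen, for MCAT (CATTCC), which TEAD factors bind in muscle genes, and for the TATA box (TATAAA). Capitals mark a match on either strand, and each sequence is printed 5′ to 3′ on the strand of its gene.

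The first Myh7 window lies at chr14:54994577-54994876, minus strand, and is shown because Myh7 had the largest called change beyond the targeted gene. It held 1 MCAT match, in the reverse orientation, at base 50 of the window. A second Myh7 window, at chr14:54994500-54994799, held no match to the 6 motifs.
Myh7: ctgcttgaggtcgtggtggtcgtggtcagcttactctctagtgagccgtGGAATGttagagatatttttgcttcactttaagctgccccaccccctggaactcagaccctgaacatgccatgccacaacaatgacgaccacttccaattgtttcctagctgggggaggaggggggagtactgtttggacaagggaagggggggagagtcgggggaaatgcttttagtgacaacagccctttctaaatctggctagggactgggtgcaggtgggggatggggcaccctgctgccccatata

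The Myl1 window lies at chr1:66945007-66945306, minus strand, and is shown because Myl1 had the largest called fall after Fbxo32. It held NFAT letters at base 95, the reverse of the TATA letters at base 156 and reverse MCAT letters at base 171.
Myl1: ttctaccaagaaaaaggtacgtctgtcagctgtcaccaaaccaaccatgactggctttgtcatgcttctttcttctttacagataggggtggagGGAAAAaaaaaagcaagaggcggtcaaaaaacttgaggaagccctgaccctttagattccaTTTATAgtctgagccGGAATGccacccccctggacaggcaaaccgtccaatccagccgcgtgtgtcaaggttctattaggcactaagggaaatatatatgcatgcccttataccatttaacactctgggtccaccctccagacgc

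The Pdlim3 window lies at chr8:45885237-45885536, plus strand, and held MCAT letters at base 50, in reverse, and at base 240. The Pdlim7 window, at chr13:55513397-55513696, minus strand, held no match to the 6 motifs and is not shown.
Pdlim3: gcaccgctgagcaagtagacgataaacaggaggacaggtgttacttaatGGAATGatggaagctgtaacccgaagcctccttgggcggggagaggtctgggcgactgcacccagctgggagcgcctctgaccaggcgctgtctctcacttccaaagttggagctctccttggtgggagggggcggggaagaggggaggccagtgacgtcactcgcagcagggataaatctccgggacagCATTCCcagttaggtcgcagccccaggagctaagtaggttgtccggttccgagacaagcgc

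MCAT letters occurred in 14.7% of all 32851 promoter windows, in 3 of 6 windows of genes higher in KO (Cp and Myh7) and in 2 of 5 windows of genes lower in KO (Myl1 and Pdlim3). The 2 Cp windows overlap and share 1 MCAT match, so those 3 windows hold 2 different matches. NFAT letters occurred in 23.4% of all windows, in 2 of 6 of the former (Cp) and 1 of 5 of the latter (Myl1). FoxO and NF-kB letters occurred in 3.65% and 1.46% of all windows and in 0 of these 11. With so few windows these counts are a description, and a match is neither a binding site nor a cause.

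Myl1 encodes the fast skeletal muscle essential light chain, whose gene gives a long and a short form. It read 7.55 and 7.47 in WT sham, 6.09 and 6.18 in KO sham, 6.28 and 5.96 in WT MI and 5.07 and 5.55 in KO MI. KO arrays were lower in each condition, but the KO sham arrays lay within the range of the WT MI arrays. Myl1 was 2.13-fold lower in KO (log2 difference -1.09, SE 0.15, limma adjusted p = 0.0436). The fall was -1.37 in sham but -0.81 in MI, with 0.56 between them (95% interval 0.01 to 1.12, unadjusted p = 0.0473, limma adjusted p = 0.608). Of the 18 skeletal muscle markers, a list that holds Myl1, 1 passed the test, 3 had a difference above 0 and 15 below, where 10015 of all 19938 genes lay above 0. The mean of this list was between 6.04 and 6.25 in the WT arrays and between 5.79 and 5.91 in the KO arrays. Of its defining members, Myh4, Mylpf and Actn3 were below the median gene level of 5.80 in every array and Tnnt3 lay around it, with Myh4 between 4.06 and 4.49, Mylpf between 3.77 and 4.27, Actn3 between 4.77 and 5.36 and Tnnt3 between 5.54 and 6.29. The part of skeletal muscle transcripts in the Myl1 result was not tested.

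Among 10 other myosin light chain genes the median difference was -0.04 and 0 passed the test. The ventricular light chains Myl2 and Myl3 differed by 0.07 and -0.05. Myl9, the smooth muscle regulatory light chain, differed by -1.43 in sham and -0.18 in MI, and the atrial Myl4 by -1.31 and -0.24. These values were large in sham and small in MI. Myl1 also fell more in sham (-1.37) than in MI (-0.81), and no test compared the genes.

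Pdlim3 and Pdlim7 encode PDZ and LIM domain proteins that bind alpha-actinin or actin filaments at Z-discs and stress fibres. Pdlim3, also called ALP, read 7.84 and 8.18 in WT sham, 7.30 and 7.12 in KO sham, 7.88 and 8.06 in WT MI and 7.06 and 6.92 in KO MI. Every KO array of both conditions lay below every WT array. It was 1.85-fold lower in KO (log2 difference -0.89, SE 0.11, limma adjusted p = 0.0436), with -0.80 in sham and -0.97 in MI. MI arrays differed from sham arrays by -0.13 (SE 0.11) for this gene, a small value beside that of the KO.

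Pdlim7, also called enigma, read 7.95 and 7.98 in WT sham, 7.29 and 7.08 in KO sham, 8.73 and 8.83 in WT MI and 8.07 and 8.28 in KO MI. Within each condition KO was the lower group, although the KO MI arrays stood above the WT sham arrays. It was 1.61-fold lower in KO (log2 difference -0.69, SE 0.10, limma adjusted p = 0.0436), with -0.78 in sham and -0.60 in MI. The KO and MI differences had opposite signs here, since MI arrays lay 0.90 (SE 0.10) above sham arrays. The 4 other PDZ and LIM family members tested, Pdlim1, Pdlim2, Pdlim4 and Pdlim5, differed by 0.11, -0.11, -0.28 and -0.09, and 0 of them passed (lowest adjusted p = 0.494). Smooth muscle and pericyte markers, whose cells also make PDZ and LIM proteins, had 0 of 14 members called. Their mean was between 8.57 and 8.90 in WT sham and 8.28 and 8.34 in KO sham, but between 7.99 and 8.07 in WT MI and 8.07 and 8.14 in KO MI. In MI single members lay on both sides of 0, with Acta2 at -0.86 and Cnn1 at 0.64. The part of smooth muscle cells in the falls of Pdlim3 and Pdlim7 was not tested.

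**Figure D2:**
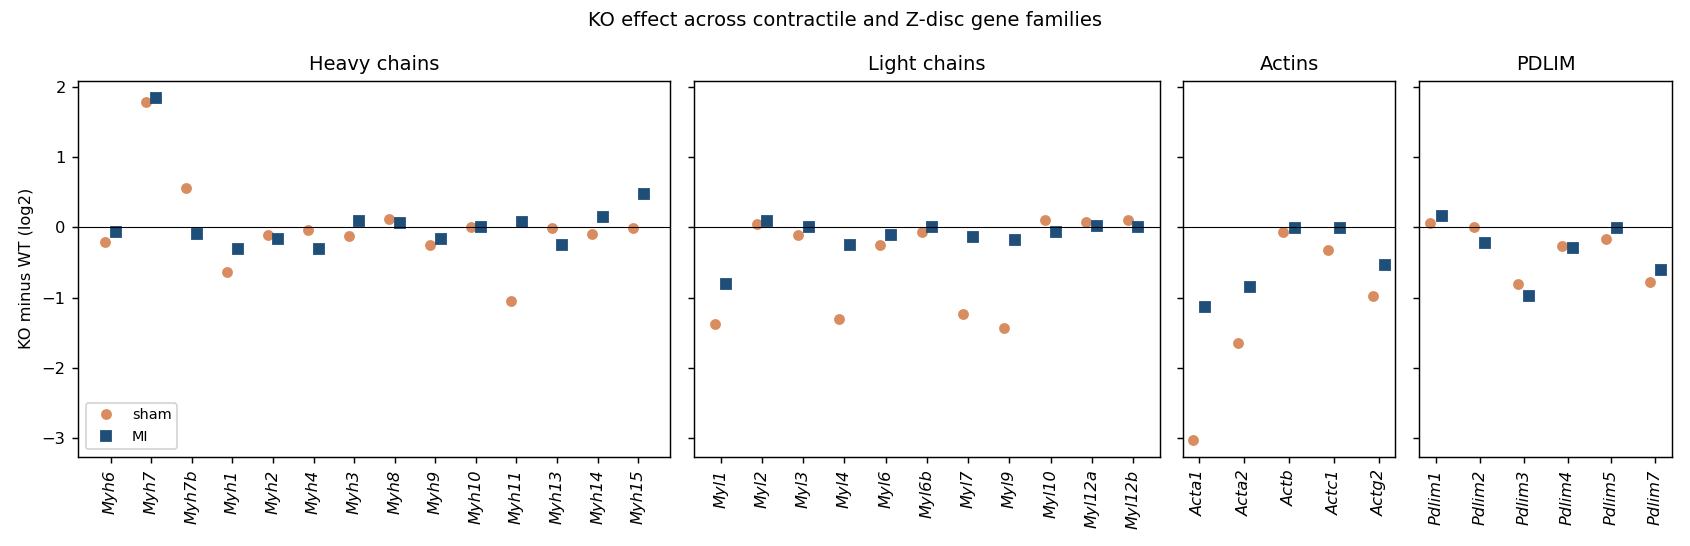
KO minus WT difference (y axis, log2) in sham (circles) and in MI (squares) for each tested member of 4 gene families (x axis); each point is the difference of 2 group means of 2 arrays. Myh7, Myl1, Pdlim3 and Pdlim7 sit away from 0 in both conditions, as do Acta1, Acta2 and Actg2, which did not pass the test. Myh11, Myl4, Myl7 and Myl9 sit away from 0 in sham and near it in MI.

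The 5 actin genes tested were all on the side of lower values in KO, between -2.08 and -0.03, with 0 past the threshold. Acta1 read 10.29 and 10.01 in WT sham, 6.97 and 7.28 in KO sham, 10.48 and 9.91 in WT MI and 8.76 and 9.36 in KO MI. Its KO arrays were the lower ones in both conditions, but by 3.02 in sham and 1.14 in MI on the log2 scale. The smaller difference was thus under 0.5 of the larger, and the 2 differed by 1.89 (95% interval 1.13 to 2.65, unadjusted p = 0.000282, limma adjusted p = 0.256). In an additive fit such a gene carries its condition difference in the residual spread. With 4 separate group means the average KO effect of Acta1 passed (limma adjusted p = 0.00364), as it did with array weights (0.0326) and without WT MI replicate 2 (0.0402). Acta2, the smooth muscle alpha-actin, differed by -1.65 in sham and -0.86 in MI (adjusted p = 0.233). Actg2, the enteric smooth muscle actin, differed by -0.98 and -0.53 (adjusted p = 0.299).

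Pcp4l1 encodes a small protein with an IQ motif, related to the calmodulin regulator Pcp4. It read 10.59 and 10.62 in WT sham, 9.88 and 9.998 in KO sham, 9.86 and 9.54 in WT MI and 9.02 and 9.03 in KO MI. KO was the lower group in each condition, and the KO sham arrays lay above the WT MI arrays. It was 1.59-fold lower in KO (log2 difference -0.67, SE 0.09, limma adjusted p = 0.0436). Its differences of -0.67 in sham and -0.68 in MI were the closest to each other among the 11 genes, with a 95% interval of -0.44 to 0.43 for what separates them. Pcp4 itself differed by -0.23 (adjusted p = 0.892).

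Olfml2b, a secreted olfactomedin-like matrix protein, read 6.84 and 7.11 in WT sham, 7.57 and 8.13 in KO sham, 5.82 and 6.12 in WT MI and 7.27 and 7.21 in KO MI. All 4 KO arrays lay above all 4 WT arrays. It was 2.10-fold higher in KO (log2 difference 1.07, SE 0.15, limma adjusted p = 0.0436), with 0.87 in sham and 1.27 in MI. The 3 other olfactomedin-like genes ran from -0.21 to 0.26, with Olfml3 at the upper end.

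Lama5, the alpha-5 chain of the laminins in vascular and other basement membranes, read 8.73 and 8.56 in WT sham, 9.16 and 9.27 in KO sham, 7.50 and 7.37 in WT MI and 8.31 and 8.25 in KO MI. KO was the higher group in each condition, while both MI groups lay below both sham groups. It was 1.63-fold higher in KO (log2 difference 0.70, SE 0.10, limma adjusted p = 0.0436), with 0.57 in sham and 0.84 in MI. The 9 other laminin chains had a median difference of 0.03, between -0.10 and 0.18. Among 17 endothelial markers, which cells next to that basement membrane carry, 0 passed, and their median difference was -0.12. The part of endothelial cells in the Lama5 result was not tested. Of 30 collagens and matrix genes 0 passed, with a median of 0.07.

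Cp encodes ceruloplasmin, the copper-carrying ferroxidase that the liver secretes and that several other tissues make. It read 9.57 and 9.53 in WT sham, 10.22 and 10.34 in KO sham, 9.13 and 9.42 in WT MI and 10.28 and 9.92 in KO MI. All 4 KO arrays lay above all 4 WT arrays. Cp was 1.71-fold higher in KO (log2 difference 0.77, SE 0.11, limma adjusted p = 0.0436), with 0.72 in sham and 0.83 in MI. The mean of 13 liver markers was between 5.98 and 6.83 in WT sham and between 4.83 and 6.50 in KO sham. In MI it was between 5.06 and 5.28 in WT and between 4.93 and 5.08 in KO, and 0 of 13 passed. The part of liver transcripts in the Cp result was not tested. Heph and Hephl1, the related membrane ferroxidases, differed by 0.06 and -0.06. The second Cp window, at chr3:19956999-19957298, plus strand, is shown because it held the 1 match to the MEF2 letters among these genes, at base 221, where the TATA letters overlap it in both orientations. MEF2 letters occurred in 0.429% of all windows and TATA letters in 13.6%. The same window held NFAT letters at bases 108 and 145 and MCAT letters at base 55.
Cp: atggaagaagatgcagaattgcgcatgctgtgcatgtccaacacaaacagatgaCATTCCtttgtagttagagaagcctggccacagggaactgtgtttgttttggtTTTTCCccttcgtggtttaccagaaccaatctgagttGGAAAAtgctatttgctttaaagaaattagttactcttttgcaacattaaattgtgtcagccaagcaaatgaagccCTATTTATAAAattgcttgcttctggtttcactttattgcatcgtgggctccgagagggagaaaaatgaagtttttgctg

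Mtss1, which encodes a membrane-bending and actin-binding protein, lies 0.817 Mb from Fbxo32 on the same chromosome. It read 7.71 and 7.81 in WT sham, 8.35 and 8.35 in KO sham, 6.94 and 6.83 in WT MI and 7.89 and 7.84 in KO MI. All 4 KO arrays were above all 4 WT arrays, with little spread between the arrays of a group. Mtss1 was 1.73-fold higher in KO (log2 difference 0.79, SE 0.10, limma adjusted p = 0.0436), with 0.59 in sham and 0.98 in MI. The difference between the conditions was 0.39 (95% interval 0.02 to 0.76, unadjusted p = 0.0415, limma adjusted p = 0.608). Its relative Mtss2, elsewhere in the genome, differed by 0.36 (adjusted p = 0.660).

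Mtss1 was the only called gene among the 45 other genes tested within 5 Mb of Fbxo32, and also among the 226 within 20 Mb. Without adjustment, 9 of those 45 genes had p under 0.05, against 1449 of all 19938. Mtss1 was among the 9. So were Tbc1d31 (0.41), 9130401M01Rik (0.23), Atad2 (0.30), Tmem65 (0.21), Tatdn1 (0.179) and Washc5 (0.36), all higher in KO. They lay close to Fbxo32, from -0.25 Mb (Tbc1d31) to 1.16 Mb (Washc5). The others of the 9, Mal2 (-0.46) and Deptor (-0.24), were lower in KO and lay at -3.61 and -3.01 Mb. The genes next to Fbxo32 did not pass after adjustment: Klhl38, a muscle Kelch protein, differed by -0.09, Wdyhv1 by 0.09, Anxa13 by -0.06, Zhx1 by 0.15 and Atad2 by 0.30. Genes close to a targeted gene can keep sequence of the strain in which the targeting was done, and can be affected by the inserted cassette. The labels give neither strain nor construct, so these and a response to MAFbx loss cannot be told apart for Mtss1. By chromosome, the 11 genes were spread over 8 chromosomes, with 3 on chromosome 1 (Myl1, Olfml2b and Pcp4l1), 2 on chromosome 15 (Fbxo32 and Mtss1) and 1 on each of the others.

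**Figure D3:**
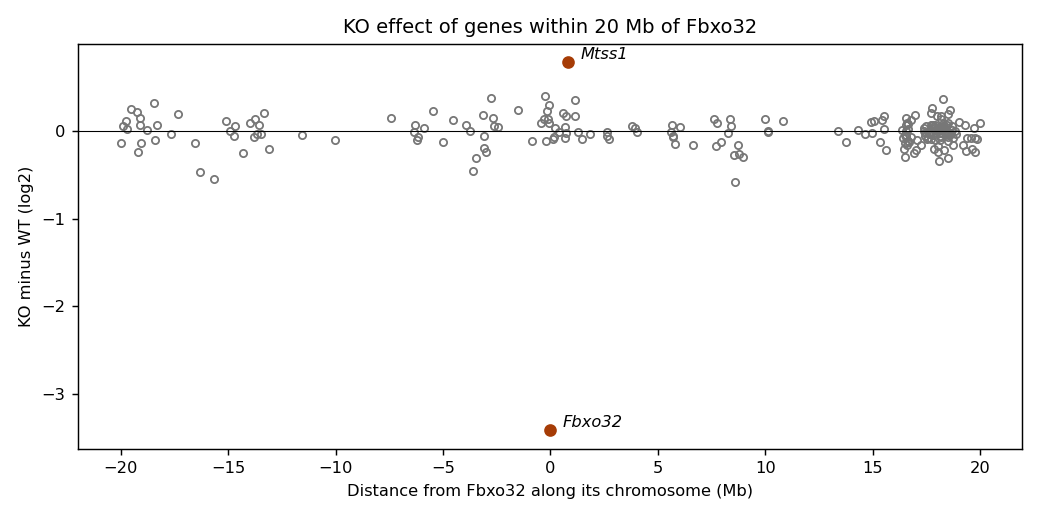
KO minus WT difference over both conditions (y axis, log2) of each gene tested within 20 Mb of Fbxo32, by its distance from Fbxo32 (x axis, Mb); filled points passed the limma test. Apart from Fbxo32 at -3.42 and Mtss1 at 0.79, the genes lie within about 0.6 of 0.

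Klk1b11 belongs to a cluster of near-identical glandular kallikrein genes, so its probe may read relatives and its identity is uncertain. It read 4.39 and 4.09 in WT sham, 3.46 and 3.13 in KO sham, 4.63 and 4.27 in WT MI and 3.61 and 3.46 in KO MI. All 4 KO arrays lay below all 4 WT arrays, though at a low level, at percentile 22.6 of all genes. It was 1.91-fold lower in KO (log2 difference -0.93, SE 0.12, limma adjusted p = 0.0436), with -0.95 in sham and -0.92 in MI. The 9 other members of the cluster ran from -0.20 to 0.13, and detection above background was not tested.

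Side by side with the effect of MI in the same arrays, the 11 genes had no single pattern. Pdlim7 and Myh7 stood higher in MI than in sham, by 0.90 and 0.68. Myl1, Lama5, Pcp4l1, Olfml2b and Mtss1 stood lower in MI, with differences of -1.11, -1.07, -0.91, -0.81 and -0.68. Fbxo32, Pdlim3, Klk1b11 and Cp differed by -0.06, -0.13, 0.22 and -0.23. For Pdlim7, Olfml2b, Mtss1 and Lama5 the KO difference had the opposite sign to the MI difference, and for Myh7, Myl1 and Pcp4l1 the same sign. Among the genes with smaller MI differences, the signs were opposite for Klk1b11 and Cp and the same for Pdlim3. For Fbxo32 the value of -0.06 averages unlike changes, so its sign is not read. Its mean was lower after MI in WT (8.77 in sham, 8.28 in MI) and higher in KO (4.93 and 5.30). These values come from the same arrays as the KO effect and are given with no test.

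The sham and MI arrays share no sample, so a difference found in one condition can be looked up in the other. In the sham arrays alone 3 genes passed, 0.015% of those tested: Fbxo32, Acta1 and Myh7 (limma adjusted p = 0.00522, 0.00739 and 0.0484). All 3 had the same sign in the MI arrays, with unadjusted p of 1.03e-07, 0.00206 and 0.000192 there by limma, and 1 of them, Fbxo32, passed after adjustment over all genes. In the MI arrays alone 2 genes passed, or 0.01%: Fbxo32 and Chil3, a lectin-like protein of activated macrophages and neutrophils (adjusted p = 0.00206 and 0.0394). Chil3 had the same sign in sham, -0.48 against -2.09 in MI, with an unadjusted p of 0.106, and its sham levels of 2.32 to 3.30 were near the 10th percentile of all genes, 3.05.

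Beyond these few genes the differences in the 2 conditions had little in common. Over all genes, 48.7% had the same sign in sham and MI, and the correlation of the 2 differences across genes was 0.03 (Pearson) and -0.02 (Spearman), where genes are not independent. Among the genes with the smallest p, and among the larger differences, more was shared. Of the 100 genes with the smallest p in sham, 65 had the same sign in MI and 24 of these had an unadjusted p under 0.05 there, against 5 of opposite sign. Over all genes those counts were 1205 (6.04%) and 1217. Of the 100 with the smallest p in MI, 61 had the same sign in sham and 15 of these an unadjusted p under 0.05, again against 5, where all genes gave 499 (2.50%) and 403. Each set of 100 includes called genes. Differences of at least 0.5 on the log2 scale in both conditions were of 1 sign in 47 genes, 18 higher and 29 lower in KO, and of opposite sign in 19. A direct test of a different KO effect in sham and MI called 0 genes (limma, lowest adjusted p = 0.0773), with 1637 at an unadjusted p under 0.05. That count of 0 does not show that effects are alike. The 95% intervals of the difference between the conditions excluded 0 for Fbxo32, Myl1 and Mtss1, as given above. They were -0.66 to 0.31 for Pdlim3, -0.24 to 0.60 for Pdlim7, -0.22 to 1.01 for Olfml2b, -0.12 to 0.68 for Lama5, -0.39 to 0.60 for Cp and -0.53 to 0.59 for Klk1b11.

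**Figure D4:**
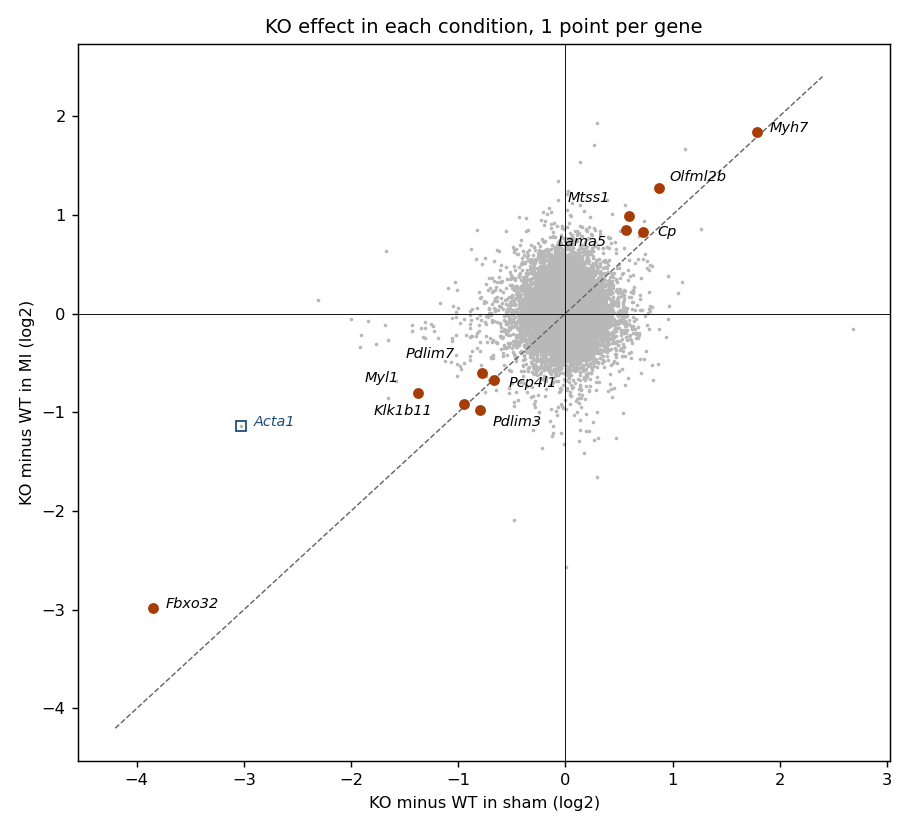
KO minus WT difference in MI (y axis, log2) against that in sham (x axis, log2) for 19938 genes (grey points); filled points are the 11 genes that passed over both conditions, the open square is Acta1, and the dashed line marks equal differences. The 11 genes lie at the lower left and upper right, Myh7 (1.79 and 1.84) and Pcp4l1 (-0.67 and -0.68) on the line and Fbxo32 (-3.85 and -2.98) off it, as is Acta1 (-3.02 and -1.14), and over all genes r was 0.03.

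The genes just outside the threshold had values much like those just inside. B3galt2, a glycosyltransferase that builds galactose onto glycans, differed by 1.39 (limma adjusted p = 0.0896), with 1.11 in sham and 1.67 in MI. Cyp4f18, a cytochrome P450 of leukotriene breakdown in myeloid cells, differed by -0.67 (adjusted p = 0.103). Both were named after their values had been seen. Ddit4, a FoxO and stress target that restrains mTOR, differed by -0.89 in sham and -0.47 in MI (adjusted p = 0.113). Ckm, muscle creatine kinase, differed by -0.67 and -0.42 (adjusted p = 0.214).

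Few members of the pathways tied to MAFbx passed the test, as did few genes of any kind (0.0552% of all genes). In lists this short, counts of 0 do not show that a pathway was unchanged. Of 26 genes of the SCF complex and other muscle ubiquitin ligases, 0 were higher and 1, Fbxo32 itself, was lower. Trim63, the other classic atrophy ligase MuRF1, differed by 0.15 (adjusted p = 0.843). Of 14 reported MAFbx substrates 0 passed, with a median difference of -0.0014. The smallest p of that list was for Nfkbia, the NF-kB inhibitor, at -0.39 in sham and -0.47 in MI (adjusted p = 0.457). Of 22 genes of calcineurin, NFAT and MEF2 signalling 0 passed, with a median of 0.10, and the calcineurin feedback gene Rcan1 differed by 0.34 in sham and 0.41 in MI (adjusted p = 0.606). Of 23 FoxO targets 0 passed (median -0.08), as did 0 of 20 NF-kB pathway genes (median -0.02), 0 of 34 proteasome genes (median -0.02) and 0 of 34 autophagy and lysosome genes. Of 27 cardiomyocyte contractile and calcium genes 0 passed, with a median of 0.0024, and their mean was between 11.9 and 12.3 in every array.

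Most of the 11 results rest on all 8 arrays. Fbxo32 passed with each array left out in turn, at a highest adjusted p of 0.000507, and so did Myh7, at a highest of 0.0355 without WT MI replicate 1. Cp, Lama5, Mtss1 and Pdlim7 missed the threshold whichever array was left out. Klk1b11 and Pcp4l1 passed only without WT MI replicate 2 (limma adjusted p = 0.0402 for both), Olfml2b only without KO sham replicate 1 (0.0125), Pdlim3 only without WT sham replicate 1 (0.0315) and Myl1 only without WT MI replicate 2 (0.0402) or KO MI replicate 2 (0.0153). The highest adjusted p of these 9 genes with 1 array left out was between 0.179 and 0.235. In a fit of all 35556 probes, Fbxo32 was the 1 gene past the threshold (limma adjusted p = 0.00692), and Myh7 missed it (0.154). The direction of each of the 11 genes was the same under every alternative run. That was largely fixed in advance, since their KO arrays lay on 1 side of the WT arrays within both conditions. The size ran from 1.63 to 1.99 for Myh7 and from -0.97 to -0.83 for Pdlim3. It ran from 0.97 to 1.28 for Olfml2b and from -1.10 to -0.86 for Klk1b11. For Fbxo32, an exact two-sided permutation of the genotype labels within conditions, with 36 relabellings, gave p = 0.0556, the smallest it can give, so this test cannot reach 0.05 here.

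**Figure D5:**
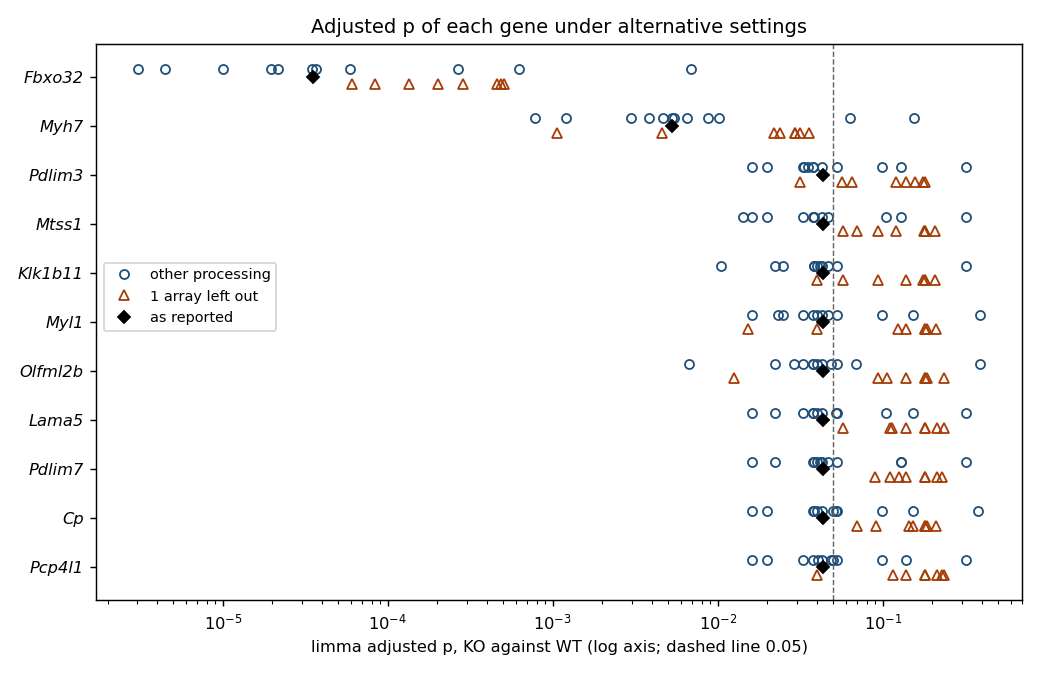
Limma adjusted p of KO against WT (x axis, log scale) for each of the 11 genes (y axis) as reported (diamonds), under other processing (circles) and with 1 array left out (triangles); the dashed line is 0.05. Fbxo32 stays left of the line throughout and Myh7 with 1 array left out, while the other 9 genes start at 0.0436 and cross it under many settings.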

How the data were processed

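RNA from 8 mouse heart samples was read on 1-colour Affymetrix arrays. The deposited values are log2 levels from Affymetrix Expression Console and RMA as run by the authors, per the submitters' processing notes; tool versions are not given in those notes. RMA as commonly run makes array distributions alike, which would reduce a shift shared by most genes. Of 35556 probes, 21789 had 1 gene in the platform annotation, 1621 several and 12146 were unlisted and are unnamed here. Entrez IDs matched 21698 of these probes to RefSeq genes. The probe with the highest mean stood for each gene (999 genes had more than 1), with no filter on low values.

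KO against WT was fitted with limma 3.58.1 (R 4.3.3), adding condition to the model (residual degrees of freedom 5, prior 5.55), two-sided, with Benjamini-Hochberg adjustment over 19938 genes. The sham and MI arrays were also fitted alone, and the difference of the KO effects in a fit of 4 group means. The code was tested on simulated data. Genes named were Fbxo32, up to 15 rises and falls past the threshold, the members with the smallest p of each list (4 at most) and up to 10 neighbours of Fbxo32. Markers, lists and these comparisons were chosen with earlier results of these data known, and the gene families and the MCAT and TATA motifs after values were seen. Groups came from the labels' genotype and condition and replicate numbers from the titles. Same-numbered arrays did not deviate together (correlations between -0.19 and 0.16), so no pairing was used. Plots used Python 3.11.15 and matplotlib 3.10.9.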

Additional observations from a re-analysis of the deposited data

How the results depend on the processing

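The count of 11 genes, 5 higher and 6 lower in KO, was within 1.5 times under an intensity trend (13), array weights (13), a robust prior (11), averaging the probes of a gene (11), leaving out the genes of lowest level (10), cyclic loess (12), median centring (9) and an adjusted p under 0.1 (12). Median centring left 3 higher. Testing all probes left 1 gene (0 higher, 1 lower), a 2-fold minimum 4 (2 and 2), a fit without the 20 Mb around Fbxo32 1 (1 and 0), and an adjusted p under 0.01 left 2. The fit of 4 group means called 20 (8 higher, 12 lower), 12 of them of like size. The count of genes of like size was 11, and 1, 4 and 1 under the first 3 of these. In the fit without the 20 Mb around Fbxo32, all but 1 of the called genes outside that region missed the threshold. This fit also left out Fbxo32 itself and Mtss1, which ranked 1 and 4 by p among all genes. The Benjamini-Hochberg adjusted p of a gene depends on the other p-values adjusted with it. What the flanking genes add to these calls was not tested. Leaving out 1 array gave 2 to 9 genes (1 to 2 higher, 1 to 7 lower), 2 to 8 of like size. Leaving out KO sham replicate 1 and WT MI replicate 2 together gave 4 (2 and 2), all of like size.

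The replicate number as a replicate block left 3 genes (1 higher, 2 lower), all of like size, and 0 that differed between conditions. In the sham arrays alone 3 genes became 6 in a fit of all 8 arrays, and 1 to 23 with 1 array left out. In the MI arrays alone 2 became 57 under an intensity trend, 6 under cyclic loess, 14 in a fit of all 8 arrays and 2 to 145 with 1 array left out, where the single array left in a group takes its spread from the other group. The 0 genes that differed between conditions became 4 under an intensity trend, 1 under cyclic loess and 0 to 3 with 1 array left out. The cause of these moves was not tested. Among 144 other named genes, 7 passed in at least 1 alternative and 10 changed sign without a call. The number of arrays limits the precision, and signal over background was not tested.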

Other observations

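Other gene groups described over both conditions had 0 members past the limma threshold, which 0.0552% of all genes passed. Cell cycle genes had the highest median KO minus WT difference of the 36 lists, 0.20 over 23 genes (0.13 in sham and 0.26 in MI), with the cyclin Ccna2 at 0.58 in sham and 0.34 in MI (adjusted p = 0.525) and 4 of 23 genes with KO arrays above WT in both conditions, against 857 of all 19938 genes. Neutrophil markers had the lowest, -0.40 over 20 genes, made up of 0.0009 in sham and -0.71 in MI. The chemokine receptor Cxcr2 differed by -0.21 in sham and -1.36 in MI (adjusted p = 0.632). Endothelial markers had a median of -0.12, with von Willebrand factor, Vwf, at -0.69 in sham and -0.45 in MI (adjusted p = 0.505), and 4 of 17 with KO arrays below WT in both conditions, against 648 of all 19938.

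Several single genes had differences of the same sign in both conditions without passing. Ccl9, a myeloid chemokine, differed by -0.47 in sham and -0.45 in MI, and Thbs1, a matrix glycoprotein that activates TGF-beta, by -0.64 and -0.77 (adjusted p = 0.233 for both). Tnc, the matrix protein tenascin-C of injured tissue, differed by 0.74 and 0.60 (adjusted p = 0.457). Akap5, an anchor of protein kinase A and calcineurin, differed by 0.24 in both (adjusted p = 0.603). Col8a1, a collagen of vessel walls and fibrosis, differed by 0.51 and 0.84 (adjusted p = 0.245), and Cx3cr1, the fractalkine receptor of resident macrophages and monocytes, by 0.41 and 0.76 (adjusted p = 0.258). Of the 701 genes on the lists 3 passed, Fbxo32, Myh7 and Myl1, and 61 listed genes were not analysed here.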
